A study of Mus musculus with 24 samples.

Results

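Heavy polysomal fractions and whole lysates of the dorsal striatum (DS) of rpS6P-/- mice were compared gene by gene. In these rpS6 knockin (KI) mice every phosphorylatable serine of ribosomal protein S6 is replaced by alanine in all cells, so the small ribosomal subunit carries an rpS6 that cannot be phosphorylated. The comparison uses 6 of the 24 libraries of the series, the 3 heavy polysomal and the 3 lysate libraries of KI DS, paired by the replicate number because each gradient was loaded from the lysate that also gave the input RNA. Each replicate pooled tissue of several mice, males and females on a mixed C57Bl/6, Sv129 and ICR background. No treatment is named for these samples, and their age is not given in the labels. The 6 libraries of wild-type (wt) littermate DS and the 6 of KI nucleus accumbens (Acb) served for comparison, each prepared in the same way.

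Messenger RNAs on which several ribosomes sit at the same time sediment deep into a sucrose gradient, and the heavy fractions here held RNA with more than 4 ribosomes by the labels and with 4 or more by the methods. RNA that is not translated, or that carries few ribosomes, stays in the upper fractions but is part of the lysate. The share of an mRNA found in heavy polysomes therefore depends on how often translation starts on it, how fast ribosomes move along it, and how many ribosomes its coding sequence can hold. The ratio of heavy polysomes over lysate is called polysome loading below. It is relative to the other genes of the same libraries, since only relative amounts are read from sequenced libraries, and says nothing of the total amount of polysomal RNA.

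The 3 KI DS lysate libraries held 16424561 to 19207807 reads assigned to genes and the 3 heavy libraries 14964662 to 27128209. Levels are given as CPM (read counts scaled to a common library size with TMM) and are not divided by gene length, so they are compared between libraries and not between genes. As a check of the tissue, the 31 genes of medium spiny neuron signalling, the projection neurons that make up most of the striatum, summed in the lysates to 11407 to 12632 CPM. The 8 markers of cortical excitatory neurons summed to 815 to 916 CPM, of which Slc17a7, the vesicular glutamate transporter of cortical neurons, gave 495, 549 and 480.2 CPM. The 6 choroid plexus markers tested summed to 132 to 144 CPM, most of it Enpp2, and the 11 endothelial markers to 27.2 to 33.8 CPM. Of 15912 genes tested, 2201 (13.8%) were higher and 2389 (15%) lower in heavy polysomes at an adjusted p under 0.05, and the median log2 ratio over all genes was 0.03. The 3 heavy and 3 lysate libraries did not overlap for 6352 genes (39.9%). Scaling by library totals in place of TMM moved the median of all genes to 0.28 and gave 3565 genes higher and 1355 lower. Bc1 alone took 15.2% to 21.9% of the lysate reads and 1.76% to 3.72% of the heavy reads, and library totals without Bc1 and without TMM gave 2056 higher and 2405 lower. Leaving out lysate 2 and its heavy library lowered the number of genes higher to 1306, with 1668 lower.

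4 sequences are shown because they belong to Bc1, the first RNA discussed, and to mRNAs with a known hairpin in the 5' UTR. Bc1 is a small neuronal RNA without an open reading frame, transcribed by RNA polymerase III. Its first 30 bases are printed as RefSeq gives them on GRCm38.p6 (chr7:144914470-144914499, plus strand), with no part in capitals:
Bc1: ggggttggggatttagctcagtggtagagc
The other 3 are stretches of 30 bases of 5' UTRs from GENCODE M21 on GRCm38, holding the loop of an iron-responsive element. This hairpin is bound by the iron regulatory proteins, which block translation when they sit close to the cap and iron is scarce. The search asked for C, any 5 bases, CAGTGN and 5 bases that pair with the first 5 (G with T allowed), on the transcribed strand. The 6 bases of the loop are in capitals.
Fth1: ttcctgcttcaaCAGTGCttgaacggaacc
Ftl1: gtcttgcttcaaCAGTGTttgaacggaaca
Slc40a1: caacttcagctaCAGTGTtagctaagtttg
They lie at chr19:9982732-9982761, plus strand, at chr7:45459778-45459807, minus strand and at chr1:45925464-45925493, minus strand. The pattern was found in 18 of 19081 5' UTRs of at least 17 bases (0.0943%).

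Loading changed with the length of the coding sequence, taken from the GENCODE model with the longest coding sequence and given in classes that exclude their lower bound. Messages of 300 to 450 nt stood highest, with a median log2 ratio of 0.72, and 323 of 660 were higher and 5 lower. From there the median declined class by class, through 0.60 at 450 to 600 nt, 0.48 at 600 to 900 nt, 0.24 at 900 to 1200 nt and -0.30 at 1800 to 2700 nt, to -0.99 above 6000 nt, where 2 of 391 genes were higher and 248 lower. At 300 nt and below the direction turned. The 248 genes of 150 to 300 nt had a median of 0.52 with 102 higher and 22 lower, and of the 7 genes up to 150 nt none was higher, 3 were lower and the median was -0.61.

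The 3 lysates gave the same shape. At 300 to 450 nt their medians were 0.48, 0.65 and 0.89, and above 6000 nt -0.77, -0.89 and -1.22. Over the 11636 genes with at least 50 reads per library on average, Spearman's rho between loading and coding length was -0.672. It was -0.544, -0.547 and -0.658 in the single lysates, -0.568 with the length of the whole transcript and -0.213 with the length of the 3' UTR, over genes that share the same libraries. Among genes with a coding length up to 600 nt the median loading was 0.76 for the 602 with a 3' UTR up to 500 nt and 0.47 for the 406 with one over 1500 nt, while above 2400 nt of coding length the same 3' UTR classes had medians of -0.61 and -0.66. The annotated model is not always the form expressed in brain. Naca, a chaperone of nascent chains, is listed with the length of its long muscle form, and the coding lengths of Mt1 and Rpl41 also come from their longest models.

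**Figure D1:**
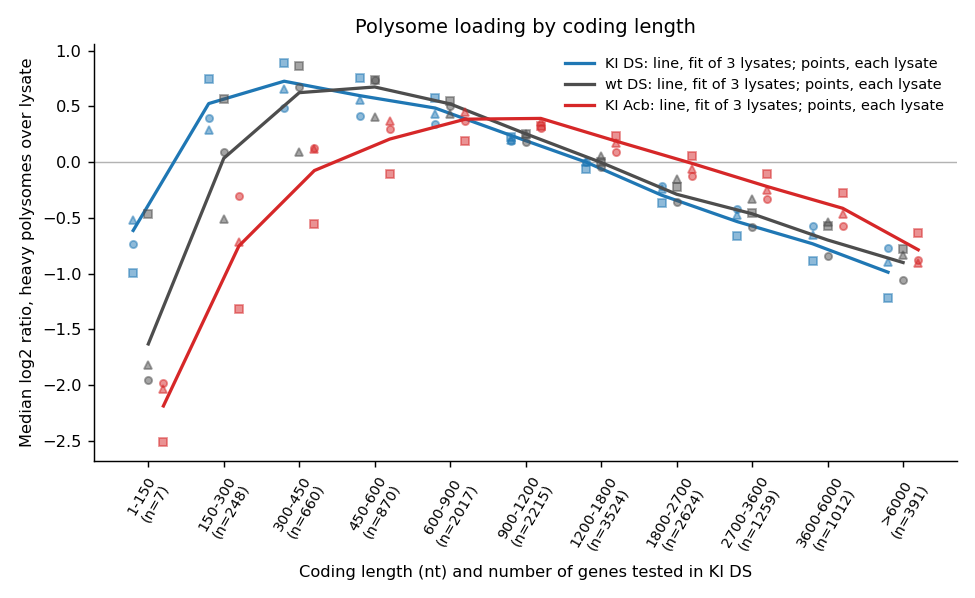
Median log2 ratio of heavy polysomes over lysate (y axis) in classes of coding length in nt (x axis, with the number of genes tested in KI DS), for KI DS, wt DS and KI Acb. Lines give the median of the fitted ratios and points the medians of the 3 lysates of each group. KI DS peaks at 0.72 at 300 to 450 nt and descends to -0.99 above 6000 nt.

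Several abundant non-coding RNAs were lower in heavy polysomes. Non-coding RNAs as a class were not: of all 796 genes that RefSeq types as lncRNA, most with few reads, 35 were lower and 17 higher with a median log2 ratio of 0.07, and of 33 snoRNAs none was called. Bc1 stood at 28843, 16096 and 35081 CPM in heavy polysomes against 251924, 233802 and 154035 CPM in the lysates, a log2 ratio of -3.04 (SE 0.11, adjusted p = 9.80e-170). All 3 heavy libraries were far below all lysates. The single lysates gave ratios of -3.13, -3.86 and -2.13, and the SE does not use this spread. 1700020I14Rik, a long non-coding RNA, stood at 23.5, 18.5 and 9.57 CPM in heavy polysomes against 72.95, 80.6 and 76.9 CPM in the lysates, a log2 ratio of -2.24 (SE 0.19, adjusted p = 1.64e-28). 2900097C17Rik, a more abundant non-coding RNA, had a log2 ratio of -1.05 (SE 0.13, adjusted p = 1.14e-13). Of the non-coding RNAs listed by name, 3 of 26 members tested were higher and 12 lower in heavy polysomes, with a median log2 ratio of -0.66. The 3 that were higher were 6330403K07Rik (log2 ratio 0.85), for which GENCODE gives a coding sequence of 363 nt, Dlx6os1 (0.63), and Ftx, a regulator of X inactivation, with a log2 ratio of 0.83 (SE 0.18, adjusted p = 3.08e-05). The host genes of small nucleolar RNAs, many of which begin with the 5' terminal oligopyrimidine (TOP) motif of ribosomal protein mRNAs, had a median of -0.75: Gas5 (log2 ratio -1.41, SE 0.17, adjusted p = 2.50e-15), Snhg8 (-1.91) and Snhg4 (-1.47) were lower and the other 11 tested were not called. Rn45s, the row named for the ribosomal RNA precursor, had 9904, 22774 and 10316 CPM in heavy polysomes and 24408, 13924 and 12626 CPM in the lysates. Whether its reads came from precursor or from mature ribosomal RNA left after poly(A) selection was not tested. Its heavy and lysate libraries overlapped, lysate 1 and lysate 2 moved in opposite directions, and its adjusted p of 0.0469 was lost without lysate 1, where the ratio became 0.21.

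Among genes called with at least 50 reads per library and no overlap between fractions, the 12 with the lowest ratios were, apart from Bc1, expressed at few CPM. Nos1, the neuronal nitric oxide synthase of a class of striatal interneurons, stood at 4.30, 2.32 and 0 CPM in heavy polysomes against 18, 20.7 and 16.3 CPM in the lysates, a log2 ratio of -3.59 (SE 0.37, adjusted p = 1.29e-19). Pcdhgc4, a clustered protocadherin that shares exons with its neighbours, had a log2 ratio of -3.79 (SE 0.75, adjusted p = 6.35e-06). Lrrc17 (-3.54), Pbld1 (-3.02), Slc9a7 (-2.86), Fam135b (-2.86), Ttc28 (-2.81), Cast (-2.66), D10Bwg1379e (-2.60), A330069E16Rik (-2.53) and Gpc4 (-2.53) completed them, of which A330069E16Rik is non-coding. After Bc1, D10Bwg1379e had the smallest adjusted p, with a coding sequence of 6510 nt and 10.99, 8.37 and 7.77 CPM in heavy polysomes against 58.7, 46.5 and 58.96 CPM in the lysates. At the other end the 12 highest ratios, from 2.02 to 2.47, also came from genes counted at few CPM. Wnt2, a secreted signalling protein, stood at 5.97, 9.04 and 12.3 CPM in heavy polysomes against 1.91, 1.76 and 2.40 CPM in the lysates, a log2 ratio of 2.12 (SE 0.45, adjusted p = 3.08e-05). The neuropeptide genes Cort (2.36) and Tac2 (2.14) belonged here with Cenpl, Zfp783, Dcxr, Oxld1, March11, Pxmp2, Rarres2, Cyba and Oaz1. Oaz1, ornithine decarboxylase antizyme, rested on 76 reads per library on average. Whether its reads were lost in counting was not tested, so neither its level nor its ratio is certain.

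Rps6 itself (chromosome 4, 86854099 to 86857367, GRCm38), which carries the mutated codons, stood at 357, 351 and 357 CPM in heavy polysomes against 329.8, 306 and 315 CPM in the lysates. The heavy libraries lay slightly above the lysates, and the log2 ratio of 0.16 (SE 0.14, adjusted p = 0.451) did not pass the threshold. Scaled by library totals it was 0.42 (adjusted p = 0.0151), and with a trend on transcript length removed it was -0.45 (adjusted p = 0.0188). The mRNAs of cytosolic ribosomal proteins begin with the TOP motif through which mTOR signalling controls them. Of these, 15 of 85 members tested were higher (17.6%) and 13 lower (15.3%) in heavy polysomes, near the 13.8% and 15% of all genes. The median log2 ratio of the 85 was 0.09. The lowest of those with at least 50 reads were Rpl41 (log2 ratio -1.35, SE 0.15, adjusted p = 4.82e-18) and Rps29 (log2 ratio -1.28, SE 0.14, adjusted p = 1.35e-16). Rps29 had 215, 219.5 and 308 CPM in heavy polysomes against 624, 626 and 534 CPM in the lysates. Rps12 (-0.94), Rps28 (-0.87) and Rps21 (-0.60), chosen after their values were seen, came next. The highest of those with at least 50 reads were Rpl36al, with 157, 171 and 201 CPM in heavy polysomes against 87.9, 109.7 and 91.4 CPM in the lysates and a log2 ratio of 0.87 (SE 0.15, adjusted p = 2.25e-07), and Rpl27 (0.65). Rpl30 and Rps27 had 12.5 and 23.5 reads per library on average. Ribosomal protein genes have many near-identical processed copies in the genome, among which the counting could lose or split reads, so the values of the whole family are uncertain to that extent.

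Set beside other short messages, fewer ribosomal protein mRNAs were higher and their median was lower. Of those with 300 to 600 nt of coding sequence, 11 of 49 were higher and 4 lower with a median of 0.19, while of the other 1481 genes of that length 723 were higher and 15 lower with a median of 0.66. Up to 300 nt none of 10 was higher and 5 were lower (median -0.58), against 102 higher and 20 lower of 245 others (median 0.54). When a smooth trend on coding length was removed from each library within the paired fit, an alternative chosen after seeing the trend, 50 of the 85 were lower and none higher (median -0.46). Over all genes that fit called 1015 higher and 1420 lower. Rps6 was then at -0.27 (adjusted p = 0.181).

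Some abundant mRNAs of the elongation machinery were lower as well. Eef1a1, the elongation factor that brings aminoacyl-tRNA to the ribosome, stood at 1971, 1559 and 1753 CPM in heavy polysomes against 3219.8, 3026 and 2995 CPM in the lysates, a log2 ratio of -0.81 (SE 0.13, adjusted p = 1.15e-08). Eef2, which moves the ribosome along, had a log2 ratio of -0.99 (SE 0.14, adjusted p = 5.06e-11), and Pabpc1, the poly(A)-binding protein, a log2 ratio of -1.12 (SE 0.15, adjusted p = 1.91e-11). Eef1a2, the form of elongation factor 1A of mature neurons, had -0.92. Within the list of elongation factors and further TOP mRNAs, 3 of 21 members tested were higher and 7 lower in heavy polysomes, with a median log2 ratio of -0.23. Scaled by library totals the median of that list was 0.02, against 0.28 for all genes. Btf3 (0.95), Eef1e1 (0.87) and Naca (0.63) were the 3 that were higher. Of the initiation and release factors, 19 of 55 members tested were higher and 11 lower in heavy polysomes, with a median log2 ratio of 0.16. Eif1 and Eif1b, small factors of start codon selection, were high (0.91 and 0.96), as was Eif4g2 (0.43), and Eif3a, the largest core subunit of eIF3, was low (log2 ratio -1.41, SE 0.16, adjusted p = 4.42e-17). The aminoacyl-tRNA synthetases, long enzymes that charge tRNAs, had 12 of 20 lower and none higher, led by Aars (-1.38) and Iars (-1.28).

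**Figure D2:**
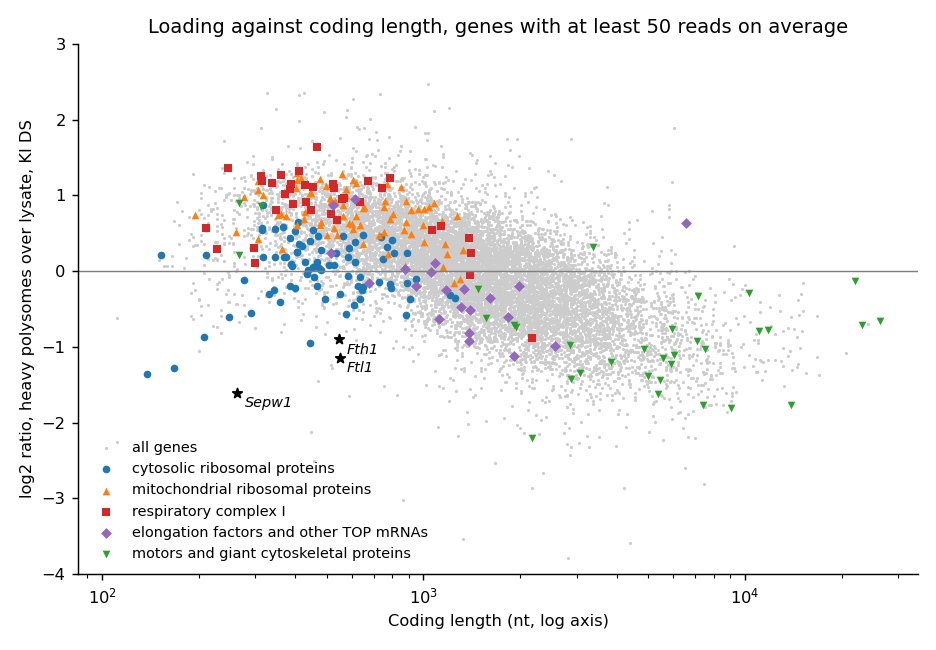
Loading (log2 ratio of heavy polysomes over lysate, y axis) against coding length (nt, log x axis) for KI DS genes with at least 50 reads per library on average. Grey points are all genes, coloured symbols the members of 5 lists, and stars mark Fth1, Ftl1 and Sepw1. At 300 to 600 nt the ribosomal proteins (blue) have a median of 0.19, below 0.93 for mitochondrial ribosomal proteins and 1.10 for complex I, and the groups overlap.

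The mRNAs of the mitochondrial machinery had the highest medians of the lists examined. Of the mitochondrial ribosomal proteins, 63 of 78 members tested were higher and 0 lower in heavy polysomes, with a median log2 ratio of 0.75. Mrps16 stood at 41.1, 42.7 and 61.97 CPM in heavy polysomes against 22.96, 17.3 and 18.6 CPM in the lysates, a log2 ratio of 1.29 (SE 0.20, adjusted p = 6.03e-09), and Mrpl41 had 1.21. The lowest ratios were those of Mrps27 (-0.15) and Mrps5 (-0.10), with coding lengths of 1245 and 1296 nt, and neither passed the test. For complex I, which passes electrons from NADH to ubiquinone, 30 of 37 members tested were higher and 1 lower in heavy polysomes, with a median log2 ratio of 0.95. Ndufab1 stood at 56.4, 67.1 and 105 CPM in heavy polysomes against 21.5, 26.5 and 22.9 CPM in the lysates, a log2 ratio of 1.64 (SE 0.18, adjusted p = 1.27e-16), and Ndufa4 at a log2 ratio of 1.36. The single subunit that was lower, Ndufs1 (log2 ratio -0.89, SE 0.16, adjusted p = 2.18e-07), has a coding sequence of 2181 nt. In complexes II to V, 35 of 50 members tested were higher and 3 lower in heavy polysomes, with a median log2 ratio of 0.93. Cox5a (1.42) and Cox7b (1.30) of cytochrome oxidase were highest among those with at least 50 reads, and Sdha (-0.61) and Atp5a1 (-0.60), long catalytic subunits, were lower. With the trend on coding length removed, complex I had 22 of 37 subunits higher and 2 lower, complexes II to V 23 of 50 higher and 6 lower, and the mitochondrial ribosomal proteins 21 of 78 higher and none lower. Among enzymes of glycolysis and the tricarboxylic acid cycle 3 of 32 were higher and 14 lower, with Pkm, pyruvate kinase, at 639, 514 and 496 CPM in heavy polysomes against 1307, 1239.9 and 1289 CPM in the lysates (log2 ratio -1.23, SE 0.14, adjusted p = 1.28e-16) and Tpi1 at 0.61.

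Other complexes had members on both sides. Of the RNA polymerase II and spliceosomal Sm proteins, the long Prpf8 (log2 ratio -2.20, SE 0.17, adjusted p = 3.40e-34), a core splicing factor, and Polr2a (-1.80), the catalytic polymerase subunit, were low. The short Polr2h (1.25) and Snrpd2 (1.19) of the same machines were high. In that list of 28 genes 17 were higher and 6 lower, with a median log2 ratio of 0.71. In the proteasome, 20 of 40 members tested were higher and 2 lower in heavy polysomes, with a median log2 ratio of 0.57, with Psmb6 (1.14) and Psmb2 (1.11) of the catalytic ring highest among those with at least 50 reads and the large base subunits Psmd2 (-0.67) and Psmd1 (-0.57) lowest. Of the chaperonin and heat shock proteins 15 of 23 were lower, among them Hspa8 (-0.72), Hsp90aa1 (-0.82) and Hspa4 (-1.16), and 2 were higher, the small Hspe1 (1.08) and Cryab (0.57). With the length trend removed 15 were lower and 1 higher, with a median of -0.48.

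A few abundant mRNAs departed far from others of their length. Fth1 and Ftl1, which encode the heavy and light chains of the iron store ferritin and hold the loops printed before, have coding sequences of 546 and 549 nt. Fth1 stood at 500.4, 427 and 629 CPM in heavy polysomes against 1043, 981 and 853 CPM in the lysates, a log2 ratio of -0.90 (SE 0.14, adjusted p = 3.06e-09). Ftl1 stood at 209, 168 and 198 CPM in heavy polysomes against 498, 389.9 and 382 CPM in the lysates, a log2 ratio of -1.14 (SE 0.15, adjusted p = 4.09e-13). All 3 heavy libraries were below all lysates for both, whereas the median of genes of 450 to 600 nt was 0.60. With the length trend removed they were at -1.44 and -1.68. Slc40a1, the iron exporter, had a log2 ratio of -0.73 (SE 0.58, adjusted p = 0.397) from 71.8 reads. Of the 9 listed iron-responsive-element mRNAs 7 were lower and none higher. They included Tfrc, the transferrin receptor, whose elements lie in the 3' UTR and act on mRNA stability (-0.85), Epas1 (-1.01), App (-0.79) and Hif3a (-2.07, 62.3 reads on average). The search found no loop in the transcripts used for App, Epas1 and Hif3a. Genes with the pattern went both ways. Of the 15 genes tested with the pattern in the 5' UTR, 5 were lower, among them Ecd, Fth1, Ftl1 and Nudt12, and 2 higher, Hiatl1 (0.64) and Ppp1r1b (0.77).

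Sepw1 (chromosome 7, 15917208 to 15922371, GRCm38), a small selenoprotein whose synthesis reads an in-frame UGA as selenocysteine, was the lowest of its class. It stood at 352, 300.5 and 376 CPM in heavy polysomes against 1093, 1072 and 953 CPM in the lysates, a log2 ratio of -1.60 (SE 0.14, adjusted p = 1.19e-26), and its 3 heavy libraries were below all lysates. The other 17 selenoproteins tested held 8 higher and none lower, such as Msrb1 (1.12) and Sephs2 (0.88), and Gpx4 was at -0.09 without passing. With the coding length trend removed 3 of the 18 were higher and 2 lower. The 2 were Sepw1 (-2.22) and Gpx4 (-0.51, adjusted p = 0.00506 in the edgeR fit). Polyamine genes, several of which are controlled during translation, had 7 of 11 higher and none lower, Oaz1 with its few reads among the 7. With the coding length trend removed 2 of the 11 were higher and none lower, and Oaz1 was not called. A further list held 16 stress-response mRNAs with upstream open reading frames, which hold back the main reading frame in unstressed cells. Of these 3 were higher (18.8%, near the 13.8% of all genes) and none lower, Eif1, Atf4 (0.55) and Ifrd1 (0.51). Ddit3 was at -0.07 (adjusted p = 0.87). With the coding length trend removed none of the 16 was higher and 1 was lower, Ddit3 (-0.62).

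**Figure D3:**
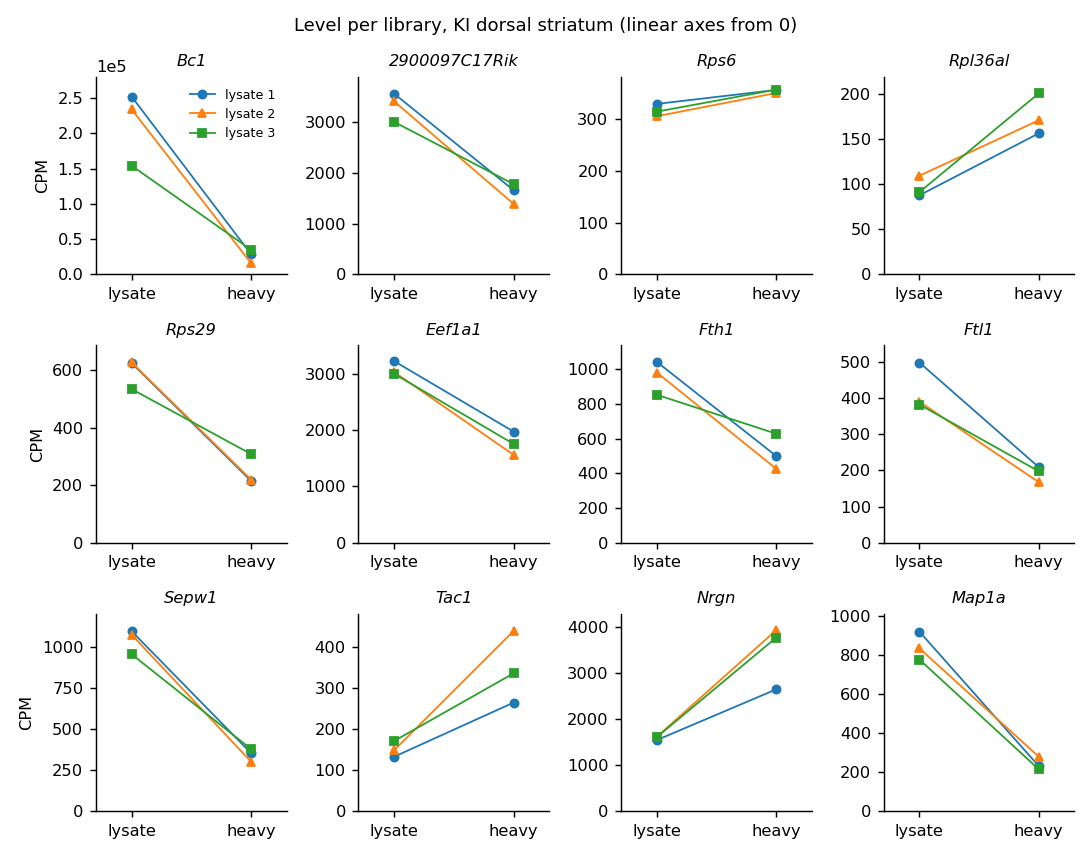
CPM in the 3 lysate and 3 heavy polysomal libraries of KI DS for 12 genes, on linear axes from 0, with a line joining the 2 libraries of each lysate. Bc1, 2900097C17Rik, Rps29, Eef1a1, Fth1, Ftl1, Sepw1 and Map1a are lower in all 3 heavy libraries, Rpl36al, Tac1 and Nrgn higher, and Rps6 nearly level.

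Some messages that define striatal neurons were higher and others lower. Of the medium spiny neuron signalling genes, 6 of 31 members tested were higher and 5 lower in heavy polysomes, with a median log2 ratio of -0.08. Their shares, 19.4% higher and 16.1% lower, were near the 13.8% and 15% of all genes. Ppp1r1b, which encodes DARPP-32, a target of dopamine signalling, stood at 1666, 1860.5 and 1893 CPM in heavy polysomes against 1143, 1062 and 982 CPM in the lysates, a log2 ratio of 0.77 (SE 0.13, adjusted p = 2.02e-07). Pde10a, the main striatal phosphodiesterase, stood at 756, 682 and 476 CPM in heavy polysomes against 1161, 1021 and 1101 CPM in the lysates, a log2 ratio of -0.80 (SE 0.14, adjusted p = 1.12e-07). The 2 genes went in opposite directions without overlap between fractions, and their coding lengths are 582 and 2550 nt. Arpp21 was at -0.08. Among neuropeptides and granins, 9 of 26 members tested were higher and 6 lower in heavy polysomes, with a median log2 ratio of 0.34. Tac1, the substance P precursor of direct pathway neurons, stood at 264, 439 and 336 CPM in heavy polysomes against 132, 148 and 171 CPM in the lysates, a log2 ratio of 1.18 (SE 0.15, adjusted p = 1.80e-13), and Penk, the enkephalin precursor of indirect pathway neurons, had a log2 ratio of 0.75 (SE 0.14, adjusted p = 8.93e-07). Vgf, a longer granin-like precursor, was lower (log2 ratio -1.40, SE 0.17, adjusted p = 8.83e-14).

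Synaptic mRNAs also lay on both sides. Of the synaptic vesicle and release proteins, 11 of 44 members tested were higher and 20 lower in heavy polysomes, with a median log2 ratio of -0.27. Vamp2, a SNARE protein of the vesicle, stood at 1589, 1867 and 2637 CPM in heavy polysomes against 1193, 1082 and 970.5 CPM in the lysates, a log2 ratio of 0.88 (SE 0.13, adjusted p = 2.17e-09), and its partner Snap25 had a log2 ratio of 0.46. Unc13a, a large priming factor of release, had a log2 ratio of -1.75 (SE 0.16, adjusted p = 4.84e-26). With the coding length trend removed this vesicle and release list had 4 members higher and 17 lower, with a median of -0.29. Snap25 was then at -0.043 and not called. Of the dendritic and postsynaptic density mRNAs, 2 of 40 members tested were higher and 22 lower in heavy polysomes, with a median log2 ratio of -0.43. Camk2a, the abundant dendritic kinase, stood at 866, 820.4 and 688 CPM in heavy polysomes against 1816, 1625 and 1582 CPM in the lysates, a log2 ratio of -1.09 (SE 0.14, adjusted p = 1.29e-13), and was at -1.08 with the length trend removed. The whole list then had 7 members higher and 10 lower, with a median of 0.01. Nrgn, neurogranin, a calmodulin-binding protein also known from dendrites, stood at 2649.6, 3939 and 3778 CPM in heavy polysomes against 1545, 1617 and 1609 CPM in the lysates, a log2 ratio of 1.10 (SE 0.13, adjusted p = 6.63e-15). Its lysate values were close to each other and all heavy values lay above them. Glutamate and GABA receptors had 2 of 36 higher, Gabra4 (0.58) and Gabrd (0.60), and 12 lower, with Grin2a (-1.54), Grin2b (-1.05) and Gria2 (-0.66) among them. After removal of the length trend 8 receptors were higher and 5 lower. Voltage-gated channels had 1 of 80 higher and 17 lower, and with the length trend removed 5 higher and 5 lower.

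The lowest median of any list belonged to motors and giant cytoskeletal proteins, of which 2 of 33 members tested were higher and 25 lower in heavy polysomes, with a median log2 ratio of -0.92. Kif3a (chromosome 11, 53565701 to 53604248, GRCm38), a subunit of kinesin-2, stood at 128, 96.1 and 132 CPM in heavy polysomes against 546, 572 and 509.8 CPM in the lysates, a log2 ratio of -2.20 (SE 0.15, adjusted p = 7.36e-45). Its coding sequence of 2175 nt is short for the list, and it was at -1.92 with the length trend removed. The whole list then had 6 members higher and 15 lower and a median of -0.35, above those of the non-coding (-0.76), iron (-0.61) and chaperone (-0.48) lists. Map1a (log2 ratio -1.81, SE 0.14, adjusted p = 8.96e-33), a scaffold of microtubules, and the kinesin Kif5a (-1.35) were lower too, while the small dynein light chains Dynll1 (0.90) and Dynlrb1 (0.86) were the only members higher. Of the small actin and tubulin regulators 12 of 24 were higher, Cfl1 (0.96) and Pfn1 (0.91) among them, and 7 lower, with the tubulin Tubb2a at -1.32. With the length trend removed 1 of the 24 was higher and 9 were lower, with a median of -0.17. Pfn1 was then at 0.33 and not called. Immediate early genes, switched on by neuronal activity, had 1 of 25 higher, Jund (0.52), and 5 lower, including Per1 (-1.10) and Jun (-0.92).

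Glial mRNAs in the same tissue were measured too. For their levels in bulk tissue, fewer cells and less RNA per cell cannot be told apart. Of 12 oligodendrocyte markers 5 were higher and 1 lower. Mbp, myelin basic protein, had 639, 1004 and 804 CPM in heavy polysomes against 544, 491 and 480.4 CPM in the lysates (log2 ratio 0.67, SE 0.14, adjusted p = 1.82e-05), and Cnp was lower (-0.54). With the coding length trend removed none of the 12 was higher and 1 was lower. Mbp was then at 0.24 (adjusted p = 0.228 in the edgeR fit). The summed level of these markers ran from 3620.5 to 5531 CPM in heavy polysomes and from 3094 to 3535 CPM in the lysates. Of 12 astrocyte markers 3 were higher, led by S100b (1.10), and 4 lower, among them Slc1a2 (-0.79) and Slc1a3 (-0.80), the glutamate transporters, with sums of 2182 to 3335 CPM against 3276 to 3911 CPM. With the length trend removed 1 astrocyte marker was higher and 6 were lower. Heavy library 2 had the highest value of Mbp, Slc1a2 and Slc1a3 among the heavy libraries, and the part of glial content in the results was not tested. Of 12 microglia markers 4 were higher and none lower, with the complement genes C1qc (1.27) and C1qb (1.04) highest. With the length trend removed 2 microglia markers were higher and 1 was lower. None of the 11 endothelial markers was called. Of the 8 cortical neuron markers 3 were lower, among them the transcription factors Cux2 (-1.28) and Tbr1 (-0.69), and of the 6 choroid plexus markers 1 was, Enpp2 (-0.51).

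**Figure D4:**
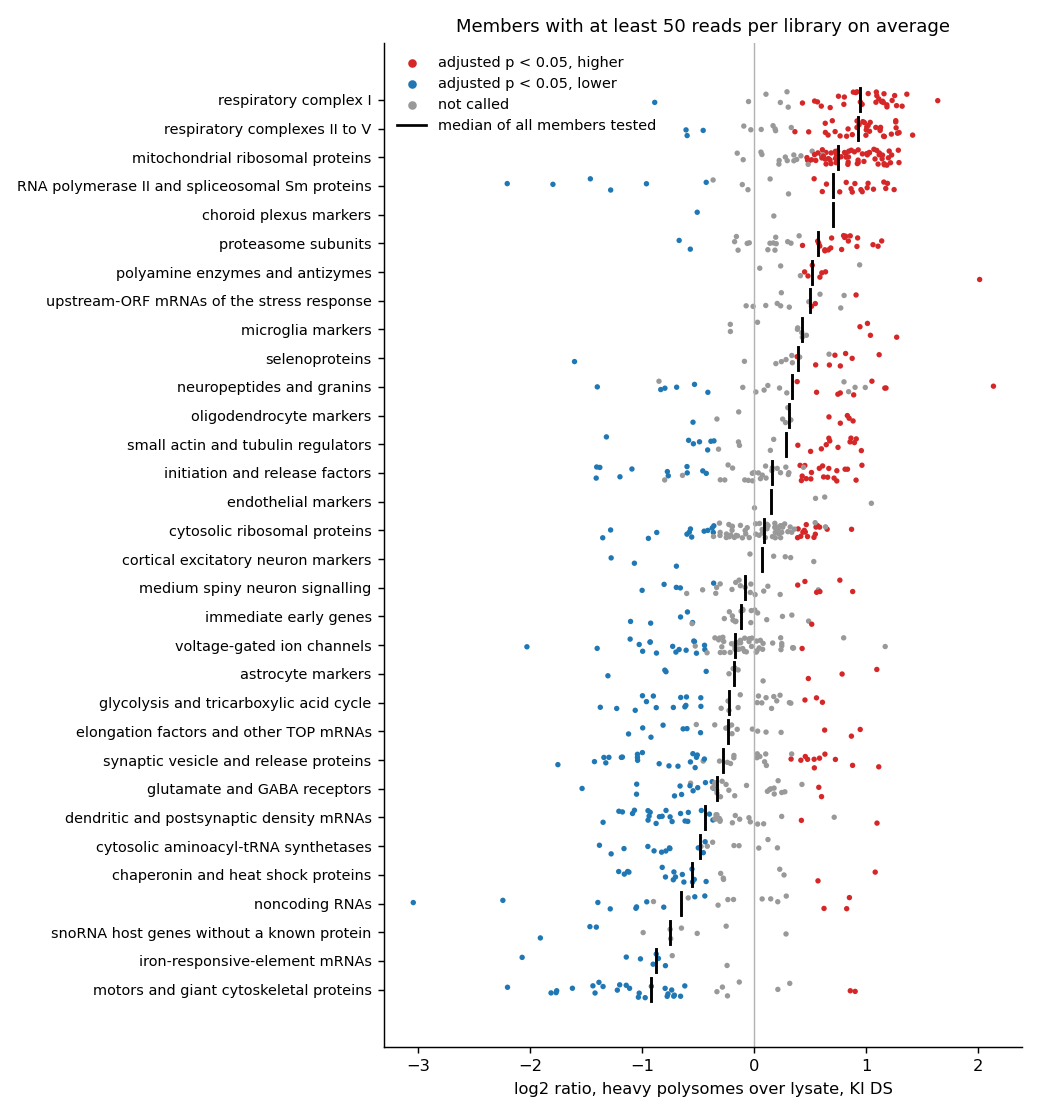
Log2 ratio of heavy polysomes over lysate in KI DS (x axis) for the members of 32 gene lists (rows) with at least 50 reads per library on average, coloured by the call. Black bars are medians over all members tested, and lists run from -0.92 for motors and giant cytoskeletal proteins to 0.95 for respiratory complex I.

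Whether loading in KI DS differed from that in wt DS was tested as the interaction of genotype and fraction over 12 libraries. 6 of 16544 genes (0.0363%) passed, all with a higher ratio in KI DS. Mt1, metallothionein 1, had log2 ratios of 0.64, 0.27 and 0.88 in the 3 KI lysates and -0.61, -1.03 and 0.23 in the 3 wt lysates, a difference of 1.10 (SE 0.22, adjusted p = 0.00572). Pcp4 (chromosome 16, 96467606 to 96525793, GRCm38), a calmodulin regulator with a coding sequence of 186 nt, had 0.45, 0.50 and 1.18 against -0.22, -0.60 and 0.28, a difference of 0.93 (SE 0.19, adjusted p = 0.00572). For both genes every KI lysate was above every wt lysate. Ramp1, a receptor-modifying protein, differed by 1.22 (SE 0.28, adjusted p = 0.0424). Cox8a, a cytochrome oxidase subunit, differed by 0.99 (SE 0.23, adjusted p = 0.0424), with KI ratios of -0.29, -0.07 and 0.27 and wt ratios of -0.64, -1.76 and -0.56. The actin-sequestering thymosins Tmsb10 (0.91, SE 0.21, adjusted p = 0.0424) and Tmsb4x (0.85, SE 0.19, adjusted p = 0.0424) completed the list. In KI DS alone Tmsb10 was lower in heavy polysomes (-0.38) and Tmsb4x was not called. In Tmsb4x the KI lysates gave -0.07, -0.22 and 0.74 and the wt lysates -0.73, -1.20 and -0.09, which overlap. The number of calls moved with the setting. It was 0 without the replicate block (811 genes at an unadjusted p under 0.05, against 723 in the blocked edgeR fit) and 0 without KI lysate 3 (674), and it was 52 higher and 4 lower without wt lysate 3.

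For the other genes no difference from wt passed, which does not show that they were equal. The median ratio at 150 to 300 nt was 0.39, 0.29 and 0.75 in the KI lysates and 0.09, -0.51 and 0.56 in the wt lysates, which overlap, and at 300 to 450 nt 0.48, 0.65 and 0.89 against 0.67, 0.09 and 0.87. Spearman's rho with coding length was -0.600 in wt DS. Rps6 differed by 0.11 (SE 0.20, adjusted p = 1) and Bc1 by 0.01 (SE 0.13, adjusted p = 1). With another test of the heavy to lysate ratio, the study reported more genes differing between genotypes in DS than passed here, in both directions. A list of 20 genes came from the text of the study. It names them for differing between genotypes in DS heavy polysomes, which is not the ratio used here. They were chosen there on libraries used here, so the list is not independent evidence. In KI DS 12 of them were higher and 3 lower in heavy polysomes, and 3, Mt1, Pcp4 and Tmsb10, differed from wt. Ecscr, an endothelial gene, had 22 reads on average and a log2 ratio of 0.55 with an SE of 1.82, so no difference was detectable at this depth.

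KI DS differed more from KI Acb, the same genotype in the ventral striatum. By the interaction of region and fraction 1104 of 16639 genes (6.64%) differed, 710 with a higher ratio in DS and 394 with a lower one. Short messages made up most of the genes higher in DS. Of the 248 genes of 150 to 300 nt 146 were higher in DS and none lower, and of the 660 of 300 to 450 nt 228 were higher and none lower, while at 1200 to 1800 nt 26 of 3524 were higher and 135 lower. The medians at 150 to 300 nt were 0.39, 0.29 and 0.75 in the DS lysates and -0.30, -0.72 and -1.31 in the Acb lysates, without overlap. Spearman's rho with coding length was -0.306 in KI Acb.

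The genes with the smallest adjusted p were Tmsb4x, Bc1, Rpl39, Pcp4 and Atp5e. Tmsb4x had ratios of -0.07, -0.22 and 0.74 in DS and -1.23, -2.14 and -2.53 in Acb, a difference of 2.10 (SE 0.21, adjusted p = 1.05e-19). Rpl39, a ribosomal protein with a coding sequence of 153 nt, differed by 2.30 (SE 0.23, adjusted p = 4.14e-19), and Atp5e, the epsilon subunit of ATP synthase, by 2.23 (SE 0.24, adjusted p = 3.58e-17). Pcp4 differed by 1.97 (SE 0.21, adjusted p = 7.10e-18). Bc1 was depleted in both regions and less so in DS, with -3.13, -3.86 and -2.13 against -3.97, -4.86 and -4.46, a difference of 1.37 (SE 0.14, adjusted p = 4.14e-19). Of the ribosomal proteins 55 of 85 had a higher ratio in DS and none a lower one (median 0.09 in DS and -0.89 in Acb). Of complex I 24 of 37 and of complexes II to V 26 of 50 had a higher ratio in DS. Fth1 differed by 0.36 (SE 0.21, adjusted p = 0.369) and Eef1a1 by 0.02 (SE 0.19, adjusted p = 1), and none of the 21 genes of the elongation and TOP list differed. Ratios were lower in DS for other genes. Hap1, a partner of huntingtin, had -0.54, -0.75 and -1.39 in DS and 0.16, 0.07 and 0.52 in Acb, a difference of -1.16 (SE 0.23, adjusted p = 4.37e-05). Necab1 differed by -1.16 (SE 0.23, adjusted p = 6.69e-05), Ywhag by -0.96 (SE 0.20, adjusted p = 1.49e-04) and Rn45s by -0.83 (SE 0.17, adjusted p = 5.18e-05). The Rn45s difference did not pass without the block (-0.67, adjusted p = 0.264), in DESeq2 (-0.79, adjusted p = 0.529), with filterByExpr (adjusted p = 0.0691) or without DS lysate 1 (-0.33, adjusted p = 0.347), Acb lysate 1 (-0.54, adjusted p = 0.0895) or Acb lysate 2 (-0.50, adjusted p = 0.0749). The Bc1 difference did not pass in DESeq2, and that of Necab1 did not without DS lysate 3. The counts moved with the libraries. Without DS lysate 3 they were 403 higher and 60 lower, without DS lysate 2 they were 480 and 122, and without Acb lysate 3 they were 359 and 72. The groups share the KI DS libraries with the genotype comparison, and the part of Rn45s or Bc1 content in the differences was not tested.

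**Figure D5:**
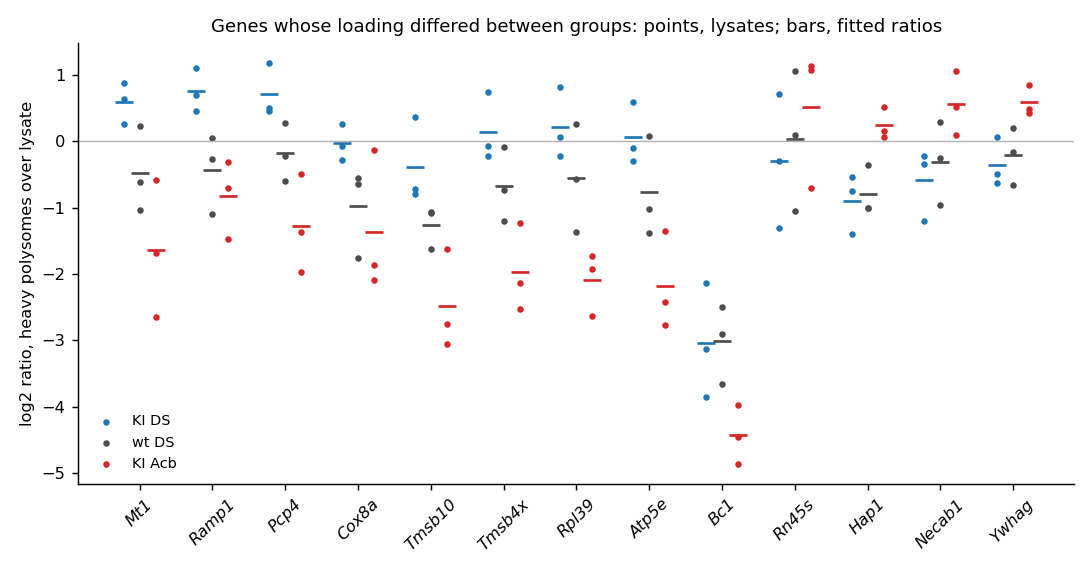
Log2 ratio of heavy polysomes over lysate (y axis) of 13 genes that differed between KI DS and wt DS or KI Acb, for the 3 lysates of each group (points) with the fitted ratio (bars). Mt1 lies between 0.27 and 0.88 in KI DS, and the fitted Acb ratios of the short mRNAs Tmsb4x, Rpl39 and Atp5e lie below both DS groups.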

How the data were processed

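Total RNA of lysates and RNA of pooled heavy polysomal fractions was sequenced after poly(A) selection, 3 libraries per fraction and group. The authors deposited raw read counts per gene, made with TopHat2 2.0.13, Bowtie2 2.2.3 and HTSeq 0.6.1p1 on mm10 (GRCm38), as given in the submitters' processing notes. Only these counts were used. Levels are TMM-scaled CPM computed here.

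Genes with at least 15 reads over the libraries compared were tested with edgeR 4.0.16 (R 4.3.3, limma 3.58.1) by the quasi-likelihood F test, with the lysate number as a block and Benjamini-Hochberg adjustment over all genes tested at 0.05. The same tool gave the interactions with genotype and region, over 12 libraries each. The pairing comes from the replicate numbers of the labels, since by the methods a gradient and its input share a lysate. The methods also say that each replicate joined heavy fractions of 2 samples. Whether the lysate library of the same number joined the same 2 is not stated. Deviations of same-numbered libraries correlated at -0.0552, 0.0245 and -0.0325 (11985 genes). With 2 residual degrees of freedom, every gene was tested against the spread expected at its read count. The scripts were tested on simulated data.

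Coding and transcript lengths came from GENCODE M21 (20427 and 21208 of 24079 genes matched), and 23977 genes had a RefSeq position. The groups compared and gene lists were chosen with earlier results of these data known. Named genes were the 12 with the largest ratio in each direction among genes called with at least 50 reads and no overlap, the genes the study names with Rps6 and Ecscr, in each list the 2 highest and 2 lowest with 50 reads and up to 2 with most reads, and up to 5 per direction in each interaction. Others are named after their values were seen, and a few genes that met the rule are not reported here. Alternatives covered scaling, filters, DESeq2 1.42.0, limma-voom, the block, length trends and leaving out each lysate. The libraries hold 14964662 to 27128209 reads, and whether the pools shared litters or days was not given in the sources used here. P-values and SEs of the edgeR fits rest on the spread between pooled samples expected at a gene's read count. They do not use that gene's own spread, so they are too small for genes whose lysates disagree.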

Additional observations from a re-analysis of the deposited data

Results flagged for a closer look

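15 differences in loading between groups passed the interaction test, the 6 called between genotypes and 9 of those with the smallest adjusted p between regions. Between KI DS and wt DS the log2 ratio of heavy polysomes over lysate was higher in KI DS by 1.10 for Mt1, 0.93 for Pcp4, 0.99 for Cox8a, 1.22 for Ramp1, 0.91 for Tmsb10 and 0.85 for Tmsb4x. Between KI DS and KI Acb it was higher in DS by 2.10 for Tmsb4x, 1.37 for Bc1, 2.30 for Rpl39, 1.97 for Pcp4 and 2.23 for Atp5e. It was lower in DS for Hap1 (-1.16), Rn45s (-0.83), Necab1 (-1.16) and Ywhag (-0.96). Pcp4 and Tmsb4x occur in both comparisons, which share the KI DS libraries. The Rn45s difference did not pass without the replicate block, in DESeq2, with filterByExpr or without DS lysate 1, Acb lysate 1 or Acb lysate 2, and ran from -0.33 without DS lysate 1 to -1.41 without Acb lysate 3. That of Bc1 did not pass in DESeq2 and that of Necab1 not without DS lysate 3. None of the 6 genotype differences passed without the block, in DESeq2, with filterByExpr, with the transcript length trend removed or without KI lysate 3.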

How the results depend on the processing

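Of the 4590 genes called between heavy polysomes and lysates, 4444 were called in the same direction without the replicate block, that is without pairing by lysate (2195 higher, 2362 lower), 4030 by DESeq2 and 2887 without lysate 2. None was called in the opposite direction under these settings, and 10 were with the coding length trend removed. Library totals without TMM gave 3565 higher and 1355 lower, and removal of the coding length trend, added after seeing the data, 1015 and 1420. Leaving out 1 lysate gave 1306 to 1993 higher and 1668 to 2175 lower. Genes higher in KI DS than in wt DS numbered 2 with DESeq2 size factors and 0 with filterByExpr, the DESeq2 test, no replicate block and the transcript length trend removed (634, 777, 811 and 667 at an unadjusted p under 0.05). Leaving out 1 lysate gave 0 to 52 higher and 0 to 4 lower. Against KI Acb the unpaired fit gave 656 higher and 321 lower, filterByExpr gave 261 lower and the transcript length trend 115 lower. Leaving out 1 lysate gave 359 to 868 higher and 60 to 591 lower. Among named genes called in either fit, the sign turned with the transcript length trend removed for 2010107E04Rik (-0.081), Atp5e (-0.62), Gria2 (0.085), Grin2b (0.026), Mt1 (-0.090), Mt2 (-0.083), Ndufa1 (-0.12), Ndufa3 (-0.56), Rpl27 (-0.00907), Rpl39 (-0.47), Rps6 (-0.45), Slc1a2 (0.012), Tmsb4x (-0.47) and Tomm7 (-0.46), and with the coding length trend removed for Atp5e (-0.51), Cplx2 (-0.26), Dynll2 (-0.41), Mt2 (-0.012), Ndufa1 (-0.037), Ndufa3 (-0.51), Oaz2 (-0.0078), Snap25 (-0.043), Tmsb4x (-0.42), Tomm7 (-0.51) and Usmg5 (-0.22). Rps6 was called in neither the paired fit (0.16) nor with the coding length trend removed (-0.27). Rn45s ran from -0.80 without lysate 2 to 0.21 without lysate 1. Other causes of these shifts were not tested. The ratio is relative within libraries, holds no count of ribosomes per mRNA, and for genes with few reads rests on few molecules.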
